A study of Homo sapiens with 6 samples.

Results

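PC-3 cells, a long-established line from a bone metastasis of human prostate cancer, were grown in medium with fetal bovine serum. Genes of the negative feedback on the ERK pathway were examined in these cells: the phosphatases DUSP1, DUSP4, DUSP5 and DUSP6, the adaptors SPRY2, SPRY4, SPRED1 and SPRED2, and the transcription factors ETV4 and ETV5. The 10 genes were taken by symbol from the 64253 genes of the count tables, and all 10 were found and had enough reads to be tested. The comparison was between 3 libraries in which an shRNA targeted CdGAP (shCdGAP) and 3 that carried a control shRNA instead (shCon). CdGAP is a GTPase-activating protein for Rac and Cdc42 that ERK itself phosphorylates. Both shRNAs came from lentiviruses. According to the study's methods, CdGAP-depleted cells were selected with puromycin and grown from single-cell clones, which is not stated for the control cells, so a difference between clones and an effect of CdGAP loss cannot be told apart in any value given here. The methods name independent samples without saying whether they were separate cultures, so p-values measure the spread between these samples, which may be technical.

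Growth factor receptors signal through RAS, RAF and MEK to the kinase ERK, which enters the nucleus and induces, among others, genes whose products restrain the same pathway. Dual-specificity phosphatases (DUSP) remove the activating phosphates from ERK and related kinases, and Sprouty (SPRY) and SPRED proteins act upstream, where they hinder the activation of RAS and RAF. ETV4 and ETV5, ETS-family transcription factors, are induced by ERK signaling when the repressor CIC is inactivated. The RNA levels of these genes are often read as a sign of ERK activity, which was itself not measured in these data.

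Library totals were 33182796 to 43154039 counted read pairs. ARHGAP31, the gene of CdGAP, had 1072, 1181 and 926 reads in shCdGAP and 2472, 2557 and 1923 in shCon, with a log2 fold change of -1.14 ± 0.0409 SE (edgeR adjusted p = 8.75e-08). The reduction was thus partial, to 0.453 of the control level. For a shCdGAP clone of PC-3 cells the study reports a larger reduction of CdGAP protein and mRNA, by other assays. Whether that clone was the one sequenced is not stated. KRT8, KRT18, EPCAM, VIM and CD44, markers of the line that were present in all libraries, together took 2271 to 2519 CPM (counts scaled to a common library total) in shCdGAP and 1473 to 1515 CPM in shCon. By edgeR at an adjusted p under 0.01, 3 of these 5 genes were higher in shCdGAP (EPCAM, VIM and CD44), beside 24.1% of all tested genes. EPCAM had the highest log2 fold change, 1.35. The androgen-responsive KLK2 and KLK3 had no read, as is known of PC-3 cells. Of 8 markers of leukocytes, endothelium and fibroblasts, 5 were too low to be tested. The summed level of the 8 lay at 60.4 to 67.7 CPM in shCdGAP and 23.5 to 24.8 CPM in shCon, most of it COL1A1. Of the 3 tested (PECAM1, COL1A1 and LUM), 2 were higher in shCdGAP by edgeR at an adjusted p under 0.01 and a log2 fold change above 1. The share of all tested genes at these limits was 8.56%. Log2 fold changes of the 3 ran from -0.57 to 3.01, with a median of 1.67. CD3E had no read, and PTPRC and VWF had at most 1 read in a library. The part of either marker list in the results was not tested. Fewer cells with a transcript and less of it per cell cannot be told apart in these bulk samples.

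The feedback genes did not move together. By edgeR's quasi-likelihood test at an adjusted p under 0.01, 5 of the 10 genes fell in shCdGAP cells (SPRY2, DUSP4, ETV4, SPRED1 and ETV5), 1 rose (DUSP1) and 4 did not pass (DUSP5, DUSP6, SPRY4 and SPRED2). Among all 16439 genes tested, 22.0% fell, 24.1% rose and 46.2% passed in either direction. With the further limit of an absolute log2 fold change above 1, SPRY2 was the single gene called lower and none was called higher, where 4.19% of all tested genes were called lower and 8.56% higher. The median log2 fold change of the 10 genes was -0.20, against 0.01 over all tested genes. For 7 of the 10 genes the shCdGAP and shCon libraries did not overlap, a share close to the 67.1% of all tested genes.

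**Figure D1:**
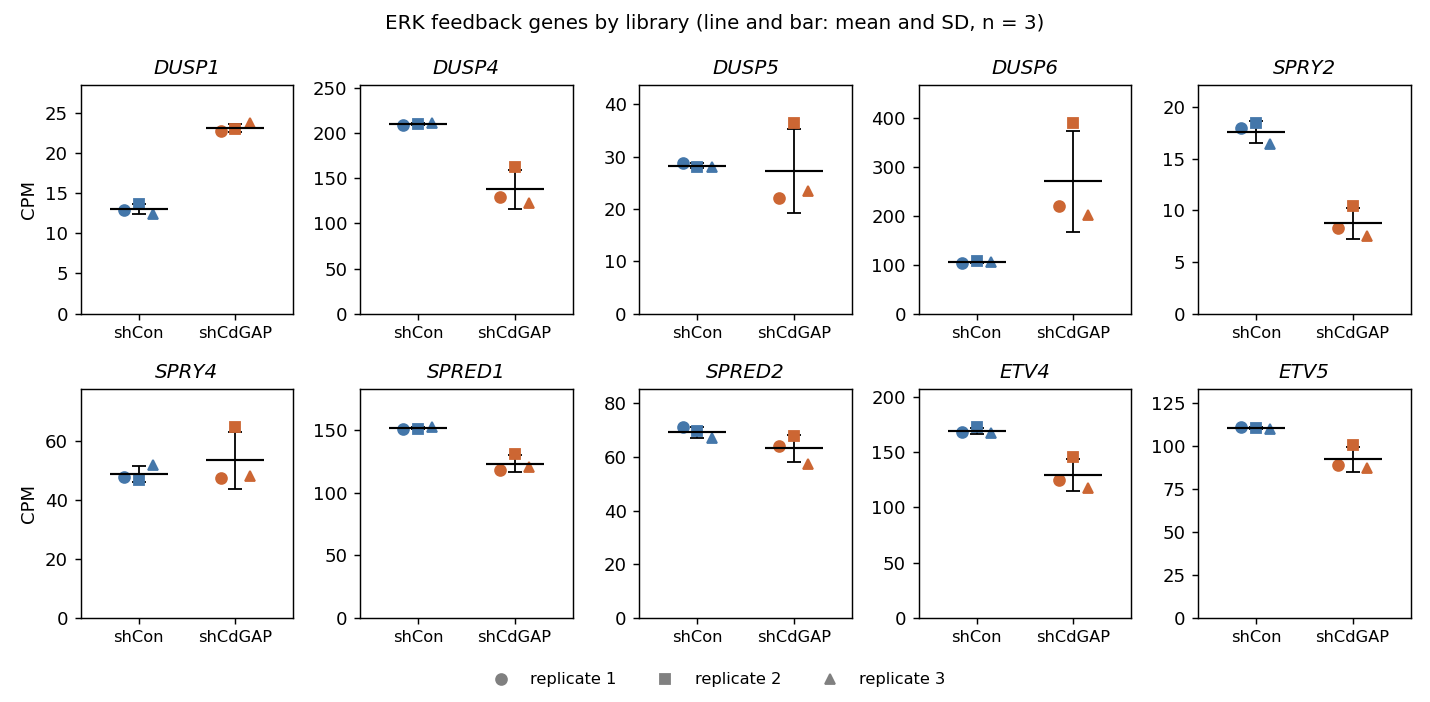
CPM of each of the 10 genes in every library, with shCon in blue and shCdGAP in orange, replicates by marker shape, and lines and bars for the mean and SD (n = 3). The shCon libraries lie close together, whereas replicate 2 of shCdGAP (square) is the highest shCdGAP library for 9 of the 10 genes.

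Promoter windows were read for the genes at the ends of this range, DUSP1 and DUSP6 with the highest log2 fold changes and SPRY2 with the lowest. RefSeq (GRCh38.p14) windows of 300 bases, from 250 before to 50 after each annotated start, were held for 6 of the 10 genes (9 windows). DUSP4, DUSP5, ETV4 and ETV5 had none in the table used. The 9 windows were searched on both strands for the cyclic AMP response element TGACGTCA, the CIC octamers TGAATGAA and TGAATGGA, the ETS motif CCGGAAGT and the AP-1 motif TGACTCA, none of which contains another. DUSP1 held TGACGTCA, shown in capitals, starting 125 bases before its start, a motif found in 1.85% of 35116 promoter windows. The second window of SPRED2 held TGACTCA 6 bases before the start, as did 4.95% of windows. The other 7 windows, among them those of DUSP6 and SPRY2 printed here, held none of these letter strings, which says nothing about binding. The windows are DUSP1 (minus strand, chr5:172771146-172771445), DUSP6 (minus strand, chr12:89352452-89352751) and the most upstream of 3 for SPRY2 (minus strand, chr13:80341077-80341376), each 5′ to 3′ on the strand of its gene.
DUSP1: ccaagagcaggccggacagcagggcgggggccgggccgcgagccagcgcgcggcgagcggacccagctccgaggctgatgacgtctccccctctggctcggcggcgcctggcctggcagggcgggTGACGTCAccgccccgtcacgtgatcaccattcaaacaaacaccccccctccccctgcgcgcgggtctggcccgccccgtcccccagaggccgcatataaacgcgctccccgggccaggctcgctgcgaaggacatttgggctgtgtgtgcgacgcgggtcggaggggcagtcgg
DUSP6: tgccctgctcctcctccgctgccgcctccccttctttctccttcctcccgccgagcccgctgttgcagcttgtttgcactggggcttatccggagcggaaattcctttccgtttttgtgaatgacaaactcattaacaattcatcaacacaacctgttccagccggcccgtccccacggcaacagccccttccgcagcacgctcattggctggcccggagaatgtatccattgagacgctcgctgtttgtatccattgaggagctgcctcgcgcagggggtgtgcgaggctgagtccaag
SPRY2: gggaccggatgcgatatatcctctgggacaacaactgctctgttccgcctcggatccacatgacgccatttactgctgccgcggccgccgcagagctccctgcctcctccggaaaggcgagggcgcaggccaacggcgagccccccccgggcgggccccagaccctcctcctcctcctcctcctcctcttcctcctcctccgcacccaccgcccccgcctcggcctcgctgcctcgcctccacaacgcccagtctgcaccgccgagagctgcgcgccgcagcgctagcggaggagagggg

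DUSP1 (ENSG00000120129, chromosome 5 from 172768090 to 172771195, GRCh38) encodes a nuclear phosphatase of ERK, JNK and related kinases that is made within minutes of many stimuli. It had 22.7, 23 and 23.7 CPM in shCdGAP replicates 1, 2 and 3, and 12.9, 13.6 and 12.4 CPM in shCon replicates 1, 2 and 3. Every shCdGAP library lay above every shCon library, and the spread within each group was small. DUSP1 rose by a log2 fold change of 0.83 ± 0.0587 SE (edgeR adjusted p = 4.15e-06), a level 1.78 times that of control cells. It passed the same limit under all 15 alternative settings.

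DUSP6 (ENSG00000139318, chromosome 12 from 89347232 to 89353271) encodes the cytoplasmic phosphatase that acts on ERK selectively. Its level was 221, 390 and 201 CPM in shCdGAP and 104, 107 and 105 CPM in shCon. All 3 shCdGAP libraries were above all shCon libraries, but replicate 2 stood far above its partners, at 1.85 times their mean. The log2 fold change was 1.36, the highest of the 10 genes, with a standard error of 0.285 and an adjusted p of 0.0111 by edgeR, which did not pass 0.01. Whether DUSP6 passed turned on the test, the scaling and single libraries. Without replicate 2 the log2 fold change was 0.99 ± 0.0309 SE (edgeR adjusted p = 1.52e-22), a level 1.99 times that of control cells. Leaving out the library that stood apart narrows the spread by itself, so this p-value is not independent support. Without shCdGAP replicate 3 the adjusted p was 0.00922 by edgeR. By DESeq2 with all libraries, the adjusted p was 8.54e-05. By edgeR with upper-quartile scaling or library size only, it was 0.00960 or 0.00943. Over the 15 alternatives it ran from 1.52e-22 to 0.0415, with 5 of them under 0.01 and all of them higher in shCdGAP.

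DUSP4 (ENSG00000120875, chromosome 8 from 29333064 to 29350668), which encodes a nuclear phosphatase related to DUSP1, went the other way. It had 129, 163 and 122 CPM in shCdGAP and 209, 210 and 211 CPM in shCon. The shCon libraries agreed closely and all lay above the shCdGAP libraries. DUSP4 fell by 0.61 ± 0.0987 SE in log2 units (edgeR adjusted p = 0.00131). The log2 fold change was -0.75 without shCdGAP replicate 2.

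DUSP5 (ENSG00000138166, chromosome 10 from 110497838 to 110511544) encodes a nuclear phosphatase selective for ERK. It had 22.0, 36.4 and 23.3 CPM in shCdGAP and 28.8, 28.0 and 28.0 CPM in shCon, so that 2 shCdGAP libraries lay below the control range and replicate 2 above it. Its log2 fold change of -0.05 (95% interval -0.51 to 0.41, adjusted p = 0.842 by edgeR) did not pass. Without shCdGAP replicate 2 the call changed, with a log2 fold change of -0.33 ± 0.0501 SE (edgeR adjusted p = 2.28e-07). Here too, leaving out the library that stood apart narrows the spread by itself, so this p-value is not independent support.

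**Figure D2:**
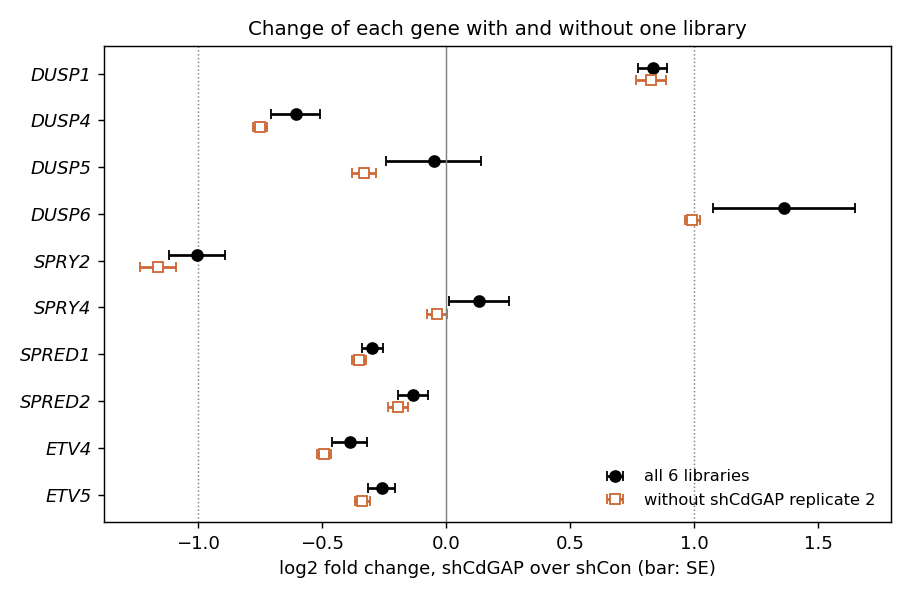
Log2 fold change of shCdGAP over shCon for the 10 genes with its standard error, from all 6 libraries (black circles) and without shCdGAP replicate 2 (open orange squares). Dotted lines mark a log2 fold change of -1 and 1. The largest shift belongs to DUSP6, from 1.36 to 0.99, whereas DUSP1 stayed at 0.83.

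SPRY2 (ENSG00000136158, chromosome 13 from 80335976 to 80340951, minus strand) encodes a Sprouty adaptor that binds GRB2 and the ubiquitin ligase CBL. It had 8.31, 10.4 and 7.54 CPM in shCdGAP and 17.9, 18.5 and 16.4 CPM in shCon. The groups lay well apart, with the highest shCdGAP library below the lowest shCon library. SPRY2 fell, with a log2 fold change of -1.0 ± 0.114 SE (95% interval -1.26 to -0.74, edgeR adjusted p = 8.05e-05), to 0.498 of the control level. It passed the adjusted p limit under all 15 alternatives, while its fold change lies at the limit of 1 and crossed it in 7 of them.

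SPRY2 lies in a part of chromosome 13 where most genes were lower in shCdGAP cells, so it was read against the 10 nearest tested genes on each side. Of these 20 neighbours, which span 18.4 Mb, 19 were lower, 18 of them with an adjusted p under 0.01 by edgeR, and their median log2 fold change was -1.74. The median around each of the other 9 feedback genes, taken in the same way, lay between -0.17 and 0.43. The 3 nearest tested genes on the lower-coordinate side were RBM26, RBM26-AS1 and NDFIP2, at log2 fold changes of -1.77, -1.90 and -1.52. On the other side they were PTMAP5 at -0.50 (adjusted p = 0.0210 by edgeR), SLITRK6 at 0.76 (adjusted p = 0.00994) and SLITRK5 at -1.95. PTMAP5 is a pseudogene close in sequence to other copies, so its reads are uncertain. Among the 20, SOX21-AS1 had the lowest value (-2.19) and SLITRK6 the highest. The log2 fold change of SPRY2 lay 0.73 above the neighbours' median, with 18 of the neighbours below it and 2 above, PTMAP5 and SLITRK6.

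The same comparison was made library by library, as log2 CPM of SPRY2 minus the mean log2 CPM of its 20 neighbours. This difference was 0.53, 0.76 and 0.36 for shCdGAP, against 0.06, 0.12 and -0.09 for shCon. Every shCdGAP library was above every shCon library, by 0.52 on average (standard error 0.130). The two-sided exact permutation test gave p = 0.1, the smallest that 3 against 3 libraries allow, so it could not pass 0.05. With 5 or 20 neighbours on each side the difference for SPRY2 was 0.42 or 0.64. Against all 269 other tested genes of chromosome 13, whose median log2 fold change was -0.99, it was -0.026. In these libraries SPRY2 thus lay above the mean of its close neighbours and near that of the whole chromosome, and neither difference was shown by a test. Near the start of the chromosome, more than 40 Mb before SPRY2, the median of 87 genes was -0.28, and from 10 to 20 Mb beyond it the median of 27 genes was -1.70.

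**Figure D3:**
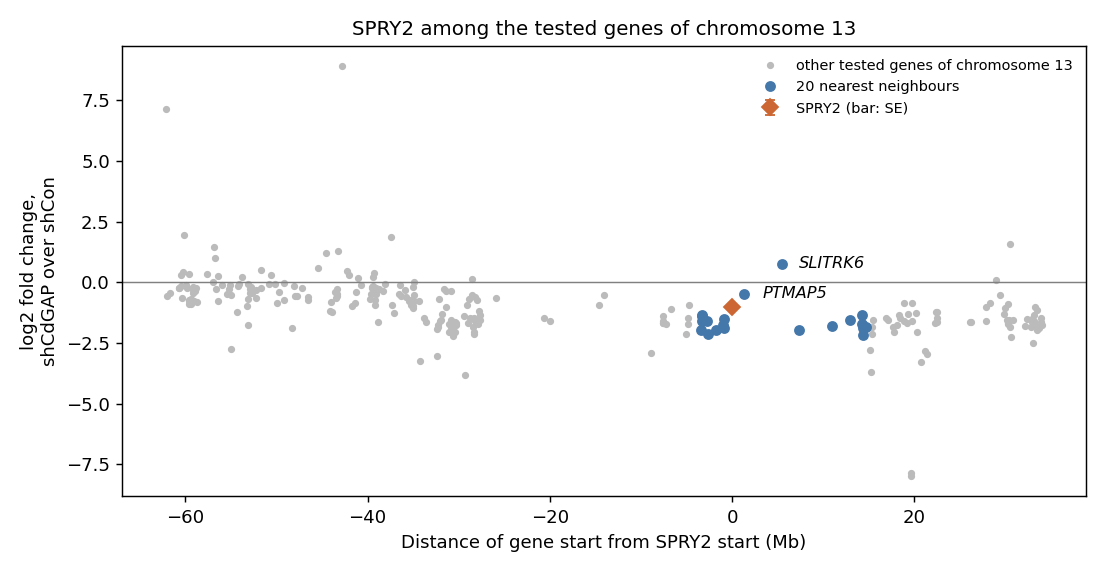
Log2 fold change of shCdGAP over shCon for the tested genes of chromosome 13 by the distance of their start from that of SPRY2, in Mb. SPRY2 (orange, with its standard error) lies at -1.0, above 18 of its 20 nearest neighbours (blue).

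By the Euclidean distance between centred log2 CPM profiles over the 6 libraries, the 5 genes most like SPRY2 were MGAT5, SLPI, AXL, KIAA1958 and ELF3, at distances of 0.13 to 0.17 and log2 fold changes of -1.07 to -0.99. None of these 5 lies on chromosome 13. This distance favours genes with a log2 fold change near that of SPRY2, whereas the median of its 20 neighbours was -1.74. The list therefore cannot show whether SPRY2 follows its chromosome.

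SPRY4 (ENSG00000187678, chromosome 5 from 142310427 to 142326455), a second Sprouty adaptor, had 47.5, 64.8 and 48.2 CPM in shCdGAP and 47.9, 46.7 and 52.1 CPM in shCon. Replicates 1 and 3 of shCdGAP lay within the control range and replicate 2 above it. The log2 fold change was 0.13 (95% interval -0.16 to 0.42, adjusted p = 0.385 by edgeR), and -0.038 without replicate 2.

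SPRED1 (ENSG00000166068, chromosome 15 from 38252326 to 38357249) encodes the membrane adaptor that brings neurofibromin to RAS. It had 119, 131 and 120 CPM in shCdGAP and 151, 151 and 152 CPM in shCon. The groups were separate and the difference was modest: SPRED1 fell by 0.30 ± 0.0433 SE in log2 units (edgeR adjusted p = 0.000353). Its paralog SPRED2 (ENSG00000198369, chromosome 2 from 65310851 to 65432637) had 64.3, 67.7 and 57.6 CPM against 71.1, 69.8 and 67.1 CPM in shCon. The ranges of SPRED2 overlapped, and its log2 fold change of -0.13 ± 0.0600 SE (edgeR adjusted p = 0.0855) did not pass. Without shCdGAP replicate 2 it was -0.19, with an adjusted p of 8.18e-05 by edgeR. That library was singled out after the values were seen, so this p-value is not independent support.

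The ETS factors ETV4 and ETV5, which act on promoters of genes for growth and invasion, both fell. ETV4 (ENSG00000175832, chromosome 17 from 43527844 to 43579620) had 124, 145 and 118 CPM in shCdGAP and 168, 172 and 167 CPM in shCon. ETV5 (ENSG00000244405, chromosome 3 from 186046308 to 186110318) had 88.8, 101 and 87.0 CPM in shCdGAP and 111, 110 and 110 CPM in shCon. For both genes the 3 shCdGAP libraries were below all shCon libraries. ETV4 fell by 0.39 ± 0.0708 SE (edgeR adjusted p = 0.00155) and ETV5 by 0.26 ± 0.0554 SE (edgeR adjusted p = 0.00325) in log2 units. ETV4 passed under all 15 alternatives, whereas ETV5 passed under 10. The adjusted p of ETV5 by edgeR was 0.0111 to 0.0169 without shCdGAP replicate 1, shCdGAP replicate 3 or any single shCon library.

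Replicate 2 of shCdGAP was the highest shCdGAP library for 9 of the 10 genes, DUSP1 being the exception, whereas this library was the highest for 41.4% of all tested genes. Its CPM relative to the mean of replicates 1 and 3 ran from 0.990 for DUSP1 to 1.85 for DUSP6, with a median of 1.25 over the 10 genes, against 0.998 over all tested genes. For DUSP5 (1.61), SPRY4 (1.35), SPRY2 (1.31) and DUSP4 (1.29) the ratio was also well above 1. A ratio above 1.5 was seen in 6.0% of all tested genes. This pattern was noticed after the values were seen, and its source was not tested. The p-values without this library are therefore not independent support for a change of these genes. Without this library, 7 of the 10 genes were lower with an adjusted p under 0.01 by edgeR and 2 higher (DUSP1 and DUSP6). In the same fit 10035 in place of 7587 of all genes passed, where the main fit tested 16439. More genes thus passed in general, and their split by direction was not counted for this fit. The counts of members without this library are therefore not read as particular to the feedback genes.

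Levels were compared between genes only per gene length, as RPKM (CPM divided by the gene's length in kilobases). In control cells ETV4 was highest at 46.9 ± 0.784 RPKM (SD, n = 3), followed by DUSP4 (29.0 ± 0.148), DUSP6 (22.8 ± 0.272), ETV5 (19.0 ± 0.0726) and SPRED1 (18.3 ± 0.0938). SPRED2, DUSP5, SPRY4 and DUSP1 came next, and SPRY2 was lowest at 5.79 ± 0.352 RPKM. The library ranges of no neighbouring pair in this order overlapped. In shCdGAP cells DUSP6 was highest at 58.5 ± 22.4 RPKM, ETV4 followed at 35.8 ± 3.97, and SPRY2 was again lowest at 2.88 ± 0.488. There the ranges overlapped between neighbours for DUSP4 and ETV5, ETV5 and SPRED1, SPRED2 and DUSP1, DUSP1 and DUSP5, and DUSP5 and SPRY4.

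**Figure D4:**
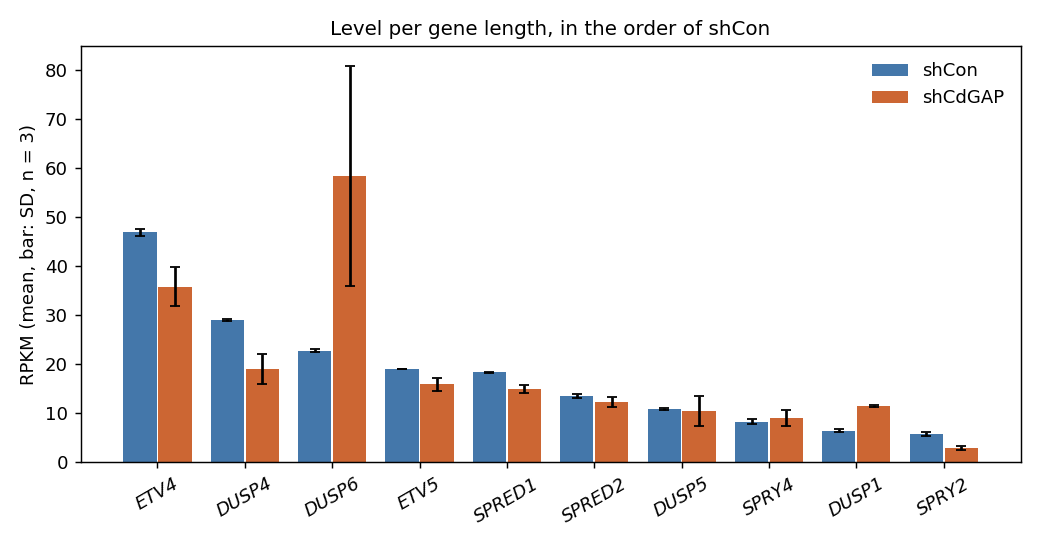
Mean RPKM of the 10 genes with the SD of 3 libraries, in the order of their level in shCon (blue), with shCdGAP beside it (orange). DUSP6 moves from the third place in shCon, at 22.8, to the first in shCdGAP, at 58.5.

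Other members of the same families also went both ways. Of 10 such genes 9 were tested, SPRY3 having at most 2 reads, and 3 rose and 3 fell with an adjusted p under 0.01 by edgeR (median log2 fold change 0.22). At the same limit 24.1% of all tested genes rose and 22.0% fell. DUSP10, a phosphatase of the stress kinases, rose by 1.58 ± 0.153 SE (edgeR adjusted p = 2.84e-05), and SPRED3 and DUSP8 rose by 0.95 and 0.58. SPRY1, the Sprouty gene on chromosome 4, had 37.2 ± 2.06 CPM in shCon and 18.4 ± 4.36 CPM in shCdGAP (SD, n = 3 each), for a change of -1.01 ± 0.151 SE in log2 units (edgeR adjusted p = 0.000921), close to that of SPRY2. DUSP16 and DUSP2 were the other genes that fell, by 0.70 and 0.32 on the log2 scale. Without shCdGAP replicate 2, where 10035 of all genes passed, 6 of these genes rose.

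Among 20 other genes known to be induced by ERK, 18 were tested, of which 8 rose and 3 fell (median log2 fold change 0.15). Of all tested genes 24.1% rose and 22.0% fell. EGR2, a zinc finger factor of the immediate early response, rose most, by 2.52 ± 0.235 SE in log2 units (edgeR adjusted p = 2.68e-05), from 1.08 ± 0.101 to 6.20 ± 1.88 CPM (SD, n = 3 each). EGR1 and EGR3 had at most 2 reads in any library. SPHK1, the kinase that makes sphingosine phosphate, the EGF-family ligand HBEGF and the secreted neuropeptide precursor VGF were higher by 1.52, 1.15 and 1.11. The ephrin receptor EPHA4 had the lowest value, falling from 2.89 ± 0.155 to 0.803 ± 0.315 CPM (SD, n = 3 each), -1.82 in log2 units (adjusted p = 0.000172 by edgeR). The number of genes of this list that rose was 5 without shCon replicate 1 or 3. The number that fell was 7 without shCdGAP replicate 2, where 10035 of all genes passed.

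For the cascade itself, from receptor adaptors to ERK and its substrate kinases, all 22 genes were tested, of which 4 rose and 9 fell (median log2 fold change -0.07). Over all tested genes these shares were 24.1% and 22.0%. The scaffolds KSR1 and KSR2, which hold RAF and MEK together, rose by 1.17 and 1.07. KSR1 had 8.02 ± 0.433 CPM in shCon and 18.1 ± 0.871 CPM in shCdGAP (SD, n = 3 each), with an adjusted p of 1.80e-06 by edgeR. The number that fell was 5 without shCdGAP replicate 1.

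Among 12 negative regulators of the cascade outside these families, 7 rose and 1 fell (median log2 fold change 0.16). Of all tested genes 24.1% rose and 22.0% fell, and the direction of this list was not tested. ERRFI1, an inhibitor of the EGF receptor, rose from 232 ± 3.47 to 952 ± 76.1 CPM (SD, n = 3 each), 2.04 ± 0.0567 SE in log2 units (edgeR adjusted p = 2.92e-08). RASA3, which stimulates the GTPase activity of RAS-family proteins, fell by 1.86 ± 0.0694 SE in log2 units (edgeR adjusted p = 1.08e-07) and lies on chromosome 13 as SPRY2 does. The number that rose was 4 without shCdGAP replicate 1 or any of the shCon libraries, and 2 fell without shCon replicate 3.

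Of 10 partners and repressors of the feedback genes, 3 rose and 1 fell by edgeR (median log2 fold change 0.13), beside 24.1% and 22.0% of all tested genes. TESK1, a kinase that binds SPRY4, had the highest log2 fold change (0.57, adjusted p = 0.000120) and SIAH2, a ubiquitin ligase that targets Sprouty proteins, the lowest (-0.33, adjusted p = 0.000110). The other genes that rose were CIC, the repressor of ETV4 and ETV5, by 0.38, and its partner ATXN1L by 0.23. Both were named after their values were seen. The share of genes that passed in either direction was 66.7% for the other family members, 61.1% for the other ERK-induced genes, 59.1% for the cascade, 66.7% for the negative regulators and 40.0% for partners and repressors, beside 46.2% of all tested genes and 60.0% of the 10 feedback genes.

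**Figure D5:**
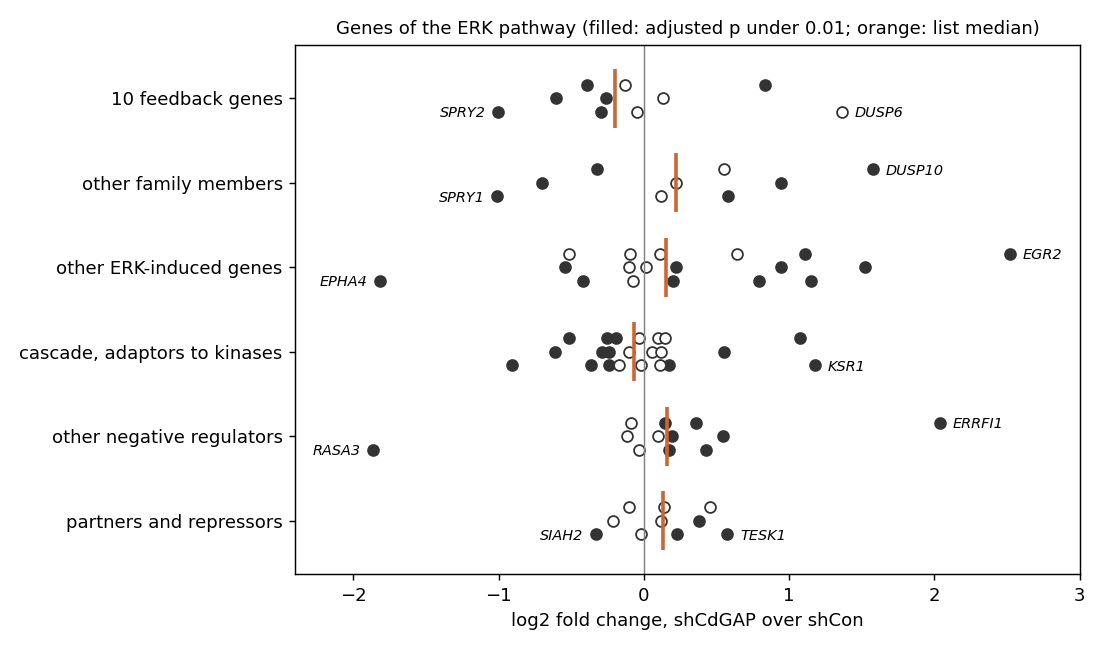
Log2 fold change of shCdGAP over shCon for each tested gene of the 6 lists, with filled circles for an adjusted p under 0.01 by edgeR and an orange bar for the list's median. The labels name genes at the ends of the lists, and in every list genes lie on both sides of 0.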

How the data were processed

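RNA-seq was measured in 6 samples of PC-3 cells, 3 per group. The authors deposited raw counts per gene. Per the file headers, these are read pairs with both ends mapped, counted by strand with featureCounts 1.6.0 on Ensembl release 77, whereas the submitters' processing notes name featureCounts 1.4.6, after alignment to GRCh38 with STAR 2.5.1b, and the methods name a single-read kit. Pairs shared by overlapping genes of one strand or with several alignments are not counted under these settings, which lowers near-identical copies. Depth limits precision mainly for genes with few reads, such as EGR1.

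Differences were tested on the counts by edgeR's quasi-likelihood F test (version 4.0.16, R 4.3.3) in its robust form, with TMM scaling, genes kept by filterByExpr and Benjamini-Hochberg adjustment over 16439 genes. No pairing was used in the main test. Standard errors are the absolute log2 fold change over the square root of F. Log2 CPM used a prior count of 2. RPKM used the deposited gene lengths. Passed means an adjusted p under 0.01, and called also an absolute log2 fold change above 1. Alternatives were DESeq2 1.42.0, voom in limma 3.58.1, other scaling and filters, a replicate block, other neighbours and each library left out. The fits were also run on simulated counts in which far fewer genes changed than passed here. That setting cannot show how they perform with changes this widespread. Tables were prepared with Python 3.11.15.

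The genes and lists were chosen with earlier results of these data known. Besides all 10 genes, the text names from each list the highest and lowest log2 fold change and the called genes (some list genes are not reported here), the 3 nearest neighbours of SPRY2 on each side with the extremes of the 20, and the 5 profiles nearest to a called gene. Others that passed are named by way of example after their values were seen.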

Additional observations from a re-analysis of the deposited data

How the results depend on the processing

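Over all genes, the counts passed and called stayed within 1.5 times of 7587, 1407 and 689 under all 15 alternatives, with 5787 to 10035 passed, 1220 to 1469 called higher and 634 to 900 called lower when each library was left out. No scaling moved the median of all genes by over 0.1. Of the feedback genes, 2 in place of 1 passed as higher with DESeq2, upper-quartile scaling and library size only, where 1 in place of 0 was called higher; this gene was DUSP6. The number called lower was 0 in place of 1 with upper-quartile scaling, library size only, no filter and a minimum of 10 reads in every library, since SPRY2 crossed the fold limit. With each library left out, 1 to 2 feedback genes passed as higher, 4 to 7 as lower, 0 to 1 were called higher and 0 to 1 lower. With single libraries left out, the log2 fold change of DUSP5 ran from -0.33 to 0.076 (above 0 without shCdGAP replicates 1 and 3) and that of SPRY4 from -0.038 (without shCdGAP replicate 2) to 0.20. SPRY2 relative to its neighbours ran from 0.42 to 0.62 over these fits, and was -0.026 against all of chromosome 13, which takes in the less lowered genes near its start.

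With no filter, 5 in place of 3 of the other family members passed as higher (2 to 6 with each library left out, and 2 to 3 lower). The same ranges were 5 to 9 higher and 3 to 7 lower for the other ERK-induced genes, 3 to 5 and 5 to 12 for the cascade, 4 to 7 and 1 to 2 for the negative regulators, and 2 to 3 and 1 for the partners. The cause of these changes was not tested.

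The values do not settle whether replicate numbers pair the samples. Same-numbered libraries had correlations of 0.031, 0.050 and 0.047 between their deviations from the group means. Those of differently numbered libraries were lower, from -0.074 to 0.028. With a replicate block, the standard error of SPRY2 relative to its neighbours was 0.060 in place of 0.130. With the replicate block 7229 genes passed in place of 7587, the feedback genes kept the counts of 1 higher and 5 lower, DUSP6 had a log2 fold change of 1.30 (adjusted p = 0.0173 by edgeR), and the 10 genes changed no call.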
